A study of Mus musculus with 4 samples.

Results

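The distal colon takes up sodium through the epithelial sodium channel (ENaC), and aldosterone, the salt-retaining steroid of the adrenal cortex, sets how much channel the cell makes. The genes described here are 9 that carry this pathway, namely the channel subunits *Scnn1a*, *Scnn1b* and *Scnn1g*, the receptor *Nr3c2*, the enzyme *Hsd11b2*, the kinase *Sgk1*, the ubiquitin ligase *Nedd4l*, the steroid-induced *Tsc22d3* and the sodium pump subunit *Atp1b1*. They were chosen by symbol, and all 9 were among the 16015 genes listed. The study asked how loss of the clock gene *Bmal1* in the gut epithelium alters colitis caused by dextran sulfate sodium (DSS), a polysaccharide that injures the colonic epithelium. Colonic epithelial cells from 2 control mice and 2 *Bmal1* cKO mice were sequenced as bulk RNA on day 7, after 5 days of 3% DSS in the drinking water and 2 days of water.

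All mice were C57BL/6 littermates, 2 to 4 months old, and both groups had received DSS, so no untreated level is available here. The control mice, labelled WT, were Bmal1 fl/fl by the methods of the study. The *Bmal1* cKO mice were Villin-CreERT2; Bmal1 fl/fl, in which tamoxifen activates a recombinase in cells that use the villin promoter, that is, in the epithelium and not in other cells of the preparation. Whether the control mice also received tamoxifen is not given in the sources used here, nor is the sex of the mice that drank DSS, the methods naming male mice only where DSS was given by gavage. Each library came from a separate mouse.

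ENaC is built from an alpha, a beta and a gamma subunit, encoded by *Scnn1a*, *Scnn1b* and *Scnn1g*, and all of them are needed for full current. Sodium enters the surface cell through ENaC in the apical membrane and leaves at the base through the sodium pump. Aldosterone binds the mineralocorticoid receptor, which raises the transcription of channel subunits and of the kinase SGK1, and SGK1 restrains the ubiquitin ligase NEDD4-2, which removes ENaC from the membrane. In the rodent distal colon it is mainly the beta and gamma subunits that follow aldosterone, whereas the alpha subunit is made more steadily.

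The reads on listed genes numbered 10312791 to 14156639 per library. The targeted gene *Bmal1*, listed as *Arntl*, had 358 and 342 normalized counts in the control libraries and 341 and 289 in those labelled *Bmal1* cKO, which is -0.16 on the log2 scale (SE 0.14, adjusted p = 0.389, limma), so every direction given is that of libraries labelled *Bmal1* cKO against libraries labelled control. These are sums over the whole gene and do not show whether the floxed part was read. Of 11 epithelial markers 5 fell and none rose (median log2 fold change -0.44), while *Krt8*, the highest of them, did not pass (33319 and 37623 normalized counts in control, 39915 and 38937 in *Bmal1* cKO) and was the only marker of the 11 above control in both *Bmal1* cKO libraries. Markers of other cells moved with the groups as well. Of 15 leukocyte markers 11 fell and none rose (summed normalized counts 12245 and 24413 in control, 2720 and 2571 in *Bmal1* cKO), with *S100a8* highest. All 10 stromal, vascular and muscle markers fell (12683 and 4236 against 403 and 399), led by *Col3a1*, and *Des* was at 0 reads in 1 *Bmal1* cKO library. Of 7 goblet cell markers 6 fell (236015 and 482846 against 71518 and 100522). Their part in the results was not tested.

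Promoter sequences are shown for the 2 subunit genes whose transcripts fell and, since it holds the motifs searched, for 1 start site of *Sgk1*. They are the 250 bases before the start from RefSeq (GRCm38.p6), which had entries for 6 of the 9 genes, and capitals mark motif matches. The motifs were the E-box CACGTG, which CLOCK and BMAL1 bind, the corticosteroid receptor half-site AGAACA and the full palindrome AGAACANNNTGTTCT, searched on both strands, a palindrome containing 2 half-sites.
Scnn1g, chr7:121734229-121734478, plus strand: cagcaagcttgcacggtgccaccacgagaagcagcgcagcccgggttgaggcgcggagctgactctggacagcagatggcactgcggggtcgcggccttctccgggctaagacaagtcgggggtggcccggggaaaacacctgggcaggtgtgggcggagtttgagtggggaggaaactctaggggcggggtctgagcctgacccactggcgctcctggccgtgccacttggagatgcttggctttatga
Scnn1b, chr7:121864788-121865037, plus strand: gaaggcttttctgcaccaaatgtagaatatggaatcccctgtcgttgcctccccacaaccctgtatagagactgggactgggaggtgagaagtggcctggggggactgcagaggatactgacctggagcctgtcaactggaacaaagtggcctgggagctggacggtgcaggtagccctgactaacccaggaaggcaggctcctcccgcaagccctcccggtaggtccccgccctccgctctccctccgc
Sgk1, chr10:21993640-21993889, plus strand: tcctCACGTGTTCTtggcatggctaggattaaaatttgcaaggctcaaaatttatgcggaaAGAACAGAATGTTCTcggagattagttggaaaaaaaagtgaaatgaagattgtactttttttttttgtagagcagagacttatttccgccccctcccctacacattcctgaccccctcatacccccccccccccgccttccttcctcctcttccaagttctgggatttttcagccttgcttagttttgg

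Neither subunit promoter held any of these letters, nor did those of *Nr3c2* and *Atp1b1*. The *Sgk1* start shown held an E-box at 246 to 241 bases before the start, overlapping a half-site at 242 to 237, and the full palindrome at 189 to 175. Among all 32851 promoters of this length, 6.02% held the E-box, 16.1% the half-site and 3 the palindrome. Half-sites alone were found at 195 and at 13 bases before 2 other *Sgk1* starts and at 185 bases before 1 start of *Tsc22d3*. A match is a description of the letters and not a bound site, and the reads do not show which start was used.

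The beta and gamma subunits of ENaC were much lower in the libraries labelled *Bmal1* cKO, the alpha subunit was lower by a smaller amount that did not pass the test, and the pump subunit *Atp1b1* was higher. The receptor, the enzyme that guards it, the kinase, the ligase and *Tsc22d3* did not pass. In counts, 2 of the 9 genes fell, 1 rose and 6 did not pass the threshold of an adjusted p under 0.05. Among the 13983 genes tested, 27.7% fell and 29.0% rose, so the number of these genes called is no larger than the background. The median log2 fold change was -0.16 over the 9 genes and -0.04 over all tested genes. In bulk RNA, fewer cells of a type and less RNA per cell cannot be told apart. Both *Bmal1* cKO libraries lay below both control libraries for 3 of the 9 genes, against 41.7% of all tested genes, and above them for 2, against 40.3%.

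**Figure D1:**
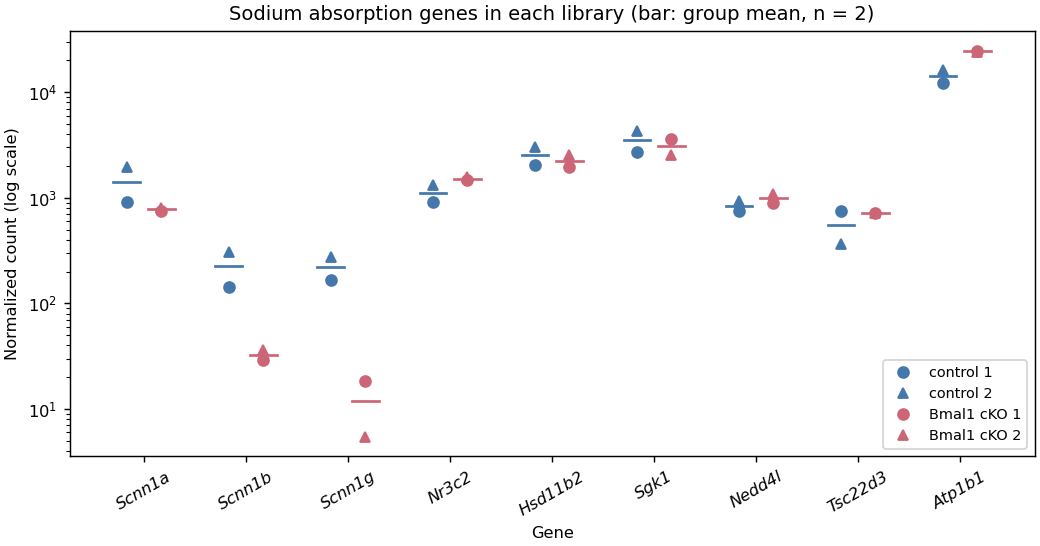
Normalized counts (log scale) of the 9 genes in each of the 4 libraries, control in blue and *Bmal1* cKO in red, with circles for mouse 1 and triangles for mouse 2 and bars for the mean of each group (n = 2). The *Scnn1b* and *Scnn1g* points of the groups are far apart, the *Atp1b1* points of *Bmal1* cKO sit above those of control, and those of *Hsd11b2*, *Sgk1*, *Nedd4l* and *Tsc22d3* overlap.

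*Scnn1g*, the gamma subunit (chromosome 7, 121734479 to 121768475, plus strand, GRCm38), had 168 and 275 normalized counts in control and 18.5 and 5.41 in *Bmal1* cKO. Both *Bmal1* cKO libraries were far below both control libraries, and the groups did not overlap. The log2 fold change was -4.27 (SE 0.62, 95% interval -5.82 to -2.73, n = 2 per group, limma adjusted p = 0.00311). The values rest on 199 and 325 reads in control and 18 and 4 in *Bmal1* cKO, so the level in the second *Bmal1* cKO library is close to the smallest that this depth can show. Without *Bmal1* cKO mouse 1 the log2 fold change was -5.08 and without *Bmal1* cKO mouse 2 it was -3.47. Taken over the summed reads of 524 and 22, the level was 17.2-fold lower, with a 95% interval of 11.3 to 27.8 that covers counting error only.

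*Scnn1b*, the beta subunit, lies 96562 bases downstream of *Scnn1g* on the same strand (121865038 to 121918514). It had 143 and 307 normalized counts in control and 28.8 and 36.5 in *Bmal1* cKO. The groups did not overlap, and the *Bmal1* cKO libraries were close to each other. It fell by 2.66 on the log2 scale (SE 0.42, 95% interval -3.71 to -1.60, limma adjusted p = 0.00429). Over summed reads of 532 and 55 the level was 7.00-fold lower (95% counting interval 5.30 to 9.42). Without *Bmal1* cKO mouse 1 the log2 fold change was -2.49 with a limma adjusted p of 0.0515.

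*Scnn1a*, the alpha subunit (chromosome 6, 125320659 to 125344943), had 904 and 1940 normalized counts in control and 757 and 807 in *Bmal1* cKO. Neither *Bmal1* cKO library reached the lower control library, but the control mice differed from each other by more than the lower of them did from *Bmal1* cKO. The log2 fold change was -0.76 (SE 0.35, 95% interval -1.63 to 0.11) and did not pass (limma adjusted p = 0.113). Without control mouse 1 it was -1.31 with an adjusted p of 0.0141, and without control mouse 2 it was -0.21.

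The balance between the subunits also differed, and this comparison within a library does not depend on how libraries are scaled. On the RPKM scale, that is, reads per kilobase of exon scaled to the reads on listed genes, *Scnn1a* had a level of 18.8 and 39.1 in control and 13.4 and 14.0 in *Bmal1* cKO. *Scnn1b* had 4.65 and 9.74 in control and 0.798 and 0.994 in *Bmal1* cKO. *Scnn1g* had 4.82 and 7.68 in control and 0.451 and 0.130 in *Bmal1* cKO. The beta and gamma subunits were alike in level in control, whereas in *Bmal1* cKO both were far below the alpha subunit and gamma was the lower of the pair.

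The alpha subunit made up 66.5% and 69.2% of the summed subunit level in control and 91.5% and 92.6% in *Bmal1* cKO. The share of the beta subunit was 16.5% and 17.2% in control and 5.46% and 6.57% in *Bmal1* cKO. The share of the gamma subunit was 17.1% and 13.6% in control and 3.09% and 0.857% in *Bmal1* cKO. In each case the groups did not overlap. On the RPKM scale the log2 ratio of *Scnn1b* to *Scnn1a* was -2.01 in both control libraries and -4.07 and -3.82 in *Bmal1* cKO. That of *Scnn1g* to *Scnn1b* was 0.05 and -0.34 in control and -0.82 and -2.94 in *Bmal1* cKO. The ratios are given as values and were not tested.

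**Figure D2:**
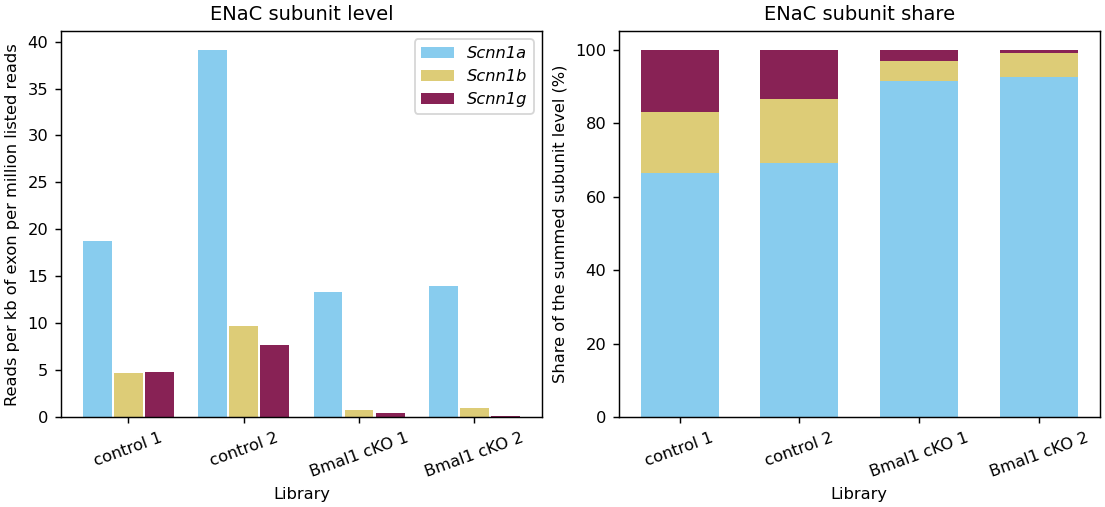
Left, the level of each ENaC subunit transcript per library in RPKM (reads per kb of exon, scaled to the reads on listed genes). Right, the share (%) of each subunit in their sum, where *Scnn1a* is 66.5% and 69.2% in control and 91.5% and 92.6% in *Bmal1* cKO.

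*Nr3c2* encodes the mineralocorticoid receptor (chromosome 8, 76899442 to 77245012). It had 920 and 1317 normalized counts in control and 1486 and 1557 in *Bmal1* cKO. The *Bmal1* cKO libraries were both higher, without overlap, but the log2 fold change of 0.47 (SE 0.18, 95% interval 0.01 to 0.92) did not pass after adjustment (limma adjusted p = 0.0734). Without control mouse 1 it was 0.21 and without control mouse 2 it was 0.72. With library total scaling it was 0.24 (limma adjusted p = 0.264). On the RPKM scale the groups overlapped, at 12.2 and 17.0 in control and 16.7 and 17.3 in *Bmal1* cKO.

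*Hsd11b2* encodes the enzyme that inactivates glucocorticoids in aldosterone target cells, so that they do not occupy the receptor (chromosome 8, 105518755 to 105523988). It had 2050 and 3028 normalized counts in control and 1977 and 2526 in *Bmal1* cKO. The groups overlapped, and the log2 fold change was -0.16 (SE 0.22, 95% interval -0.71 to 0.39, limma adjusted p = 0.561). Its sign depended on the processing. With the libraries corrected for GC content and length it was 1.16 (adjusted p = 0.0167).

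*Sgk1* encodes the kinase that aldosterone and glucocorticoids induce (chromosome 10, 21882184 to 21999903). It had 2731 and 4333 normalized counts in control and 3628 and 2529 in *Bmal1* cKO. Each group held a high and a low library, and the groups overlapped. The log2 fold change was -0.18 (SE 0.27, 95% interval -0.86 to 0.50, limma adjusted p = 0.582), an interval that leaves room for a change of either sign.

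*Nedd4l* encodes NEDD4-2, the ligase that SGK1 restrains (chromosome 18, 64887705 to 65217828). It had 748 and 931 normalized counts in control and 893 and 1087 in *Bmal1* cKO. The groups overlapped, and the log2 fold change was 0.24 (SE 0.16, 95% interval -0.16 to 0.63, limma adjusted p = 0.237). On the RPKM scale the log2 ratio of *Sgk1* to *Nedd4l* also overlapped, at 3.72 and 4.07 in control and 3.87 and 3.07 in *Bmal1* cKO.

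*Tsc22d3* encodes GILZ, a leucine zipper protein that corticosteroids induce (chromosome X, 140539528 to 140600659, minus strand). It had 742 and 363 normalized counts in control and 717 and 712 in *Bmal1* cKO. The *Bmal1* cKO libraries were nearly equal and lay within the range of the control libraries. The log2 fold change was 0.46 (SE 0.33, 95% interval -0.36 to 1.29, limma adjusted p = 0.270), and it rested on the low control mouse 2, without which it was -0.05. Without control mouse 1 it was 0.98 (adjusted p = 0.0177).

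*Atp1b1* encodes the beta subunit that brings the sodium pump to the membrane (chromosome 1, 164437109 to 164458355, minus strand). It had 12217 and 16321 normalized counts in control and 24780 and 24194 in *Bmal1* cKO, the highest values among the 9 genes. Both *Bmal1* cKO libraries were above both control libraries. The log2 fold change was 0.79 (SE 0.18, 95% interval 0.35 to 1.24, limma adjusted p = 0.0134). The call was lost without control mouse 1 (0.59, adjusted p = 0.0566), without *Bmal1* cKO mouse 1 (0.78, adjusted p = 0.120) and without *Bmal1* cKO mouse 2 (0.81, adjusted p = 0.111). It shares 575 exon bases with *Nme7* on the other strand, and as no strand setting is given in the sources used here, reads of the pair may mix. *Nme7* itself had 131 and 168 normalized counts in control and 197 and 238 in *Bmal1* cKO, far fewer than *Atp1b1*.

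The balance of *Nr3c2* and *Nr3c1*, the glucocorticoid receptor, differed as well. On the RPKM scale the log2 ratio of *Nr3c2* to *Nr3c1* was 0.13 and 0.75 in control and -0.54 and -0.69 in *Bmal1* cKO. On the same scale that of *Hsd11b2* to *Nr3c2* was 2.97 and 3.02 in control and 2.23 and 2.51 in *Bmal1* cKO. But this order turned with the corrections for GC content and length. There the log2 fold change of *Hsd11b2* was 1.16 (least-squares) and 0.88 (robust) and that of *Nr3c2* 0.37 and 0.14.

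Per length, the mean levels in control ran from *Atp1b1* at 391 ± 71.7 (SD, n = 2) through *Hsd11b2* at 116 ± 29.4 and *Sgk1* at 60.8 ± 18.3 to *Scnn1a* at 29.0 ± 14.4 RPKM. *Nr3c2* had a level of 14.6 ± 3.37 and *Tsc22d3* one of 10.8 ± 5.44. *Scnn1b*, *Scnn1g* and *Nedd4l* followed at 7.20 ± 3.60, 6.25 ± 2.02 and 4.01 ± 0.539. From *Nr3c2* down to *Scnn1g*, the control values of neighbours in this order overlapped. In *Bmal1* cKO *Nedd4l* stood above *Scnn1b* and *Scnn1g*, with levels of 4.05 ± 0.515, 0.896 ± 0.139 and 0.291 ± 0.228.

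The log2 fold change of a gene moved with the GC content of its transcripts. In 10 classes of tested genes ordered by GC content, the median ran from 1.14 in the lowest class to -1.36 in the highest. *Scnn1g* (49.8% GC) differed from the median of its class by -4.41 and lay below the lowest 5% of the class, which ends at -2.73. *Scnn1b* (55.1%) differed from its class median by -2.04 and lay above the lowest 5% of its class, which ends at -3.42. *Scnn1a* (56.5%) lay within 0.07 of its class median of -0.83. *Hsd11b2* (57.8%) lay 1.20 above its class median and *Atp1b1* (51.6%) 0.85 above. What part GC content had in these differences was not tested beyond this and the correction that follows.

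**Figure D3:**
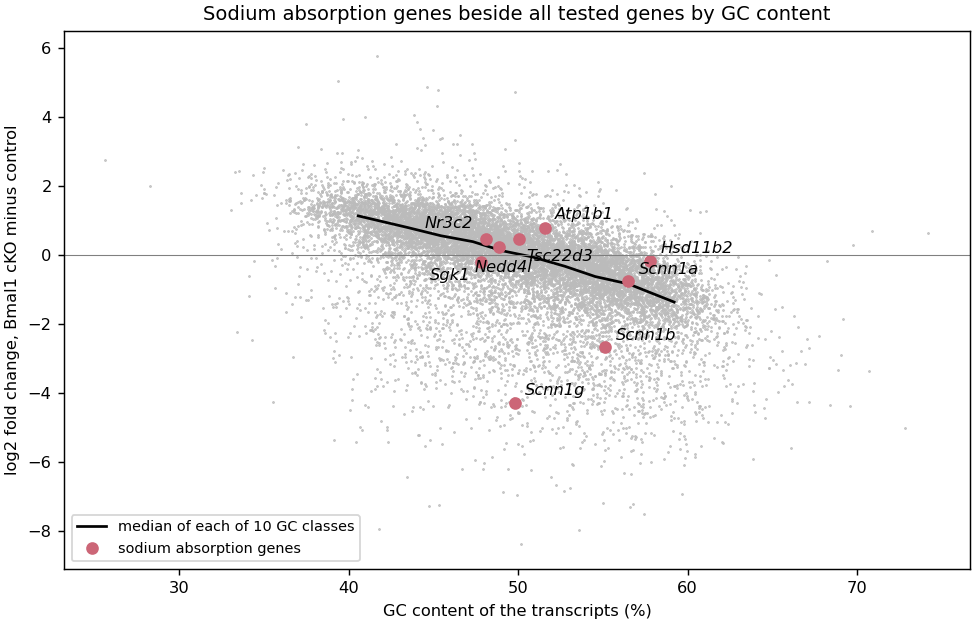
Log2 fold change (*Bmal1* cKO minus control) of all tested genes with a known GC content against the GC content of their transcripts (%), each grey point a gene and the line the median of each of 10 GC classes, drawn at the median GC content of the class. *Scnn1g* and *Scnn1b* lie below the line, *Atp1b1* and *Hsd11b2* above it and *Scnn1a* on it.

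After each library was corrected for GC content and length by a least-squares loess curve, *Scnn1g* fell by 4.08 on the log2 scale (limma adjusted p = 0.00618) and *Scnn1b* fell by 1.73 (adjusted p = 0.0276). *Atp1b1* rose by 1.24 (adjusted p = 0.00876). *Scnn1a* turned to 0.33 (adjusted p = 0.518). That correction moved the median of all genes by 0.29, and a robust form, added after this was seen, moved it by 0.02 and gave -4.36, -2.03, 0.93 and 0.03 for these genes in the same order and 0.88 for *Hsd11b2*, with the same 4 genes past the threshold, namely *Scnn1g*, *Scnn1b*, *Atp1b1* and *Hsd11b2*. Of all tested genes 10.9% fell and 28.6% rose under the first form, and 16.8% and 17.1% under the second.

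Scaling the libraries to 11 epithelial markers moved the median of all genes by 0.54, so that 15.1% of them fell and 42.6% rose. *Scnn1b* and *Scnn1g* still fell, whereas *Nr3c2* at 1.02, *Nedd4l* at 0.79, *Tsc22d3* at 1.01 and *Atp1b1* at 1.34 rose. All of these values include the shift.

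**Figure D4:**
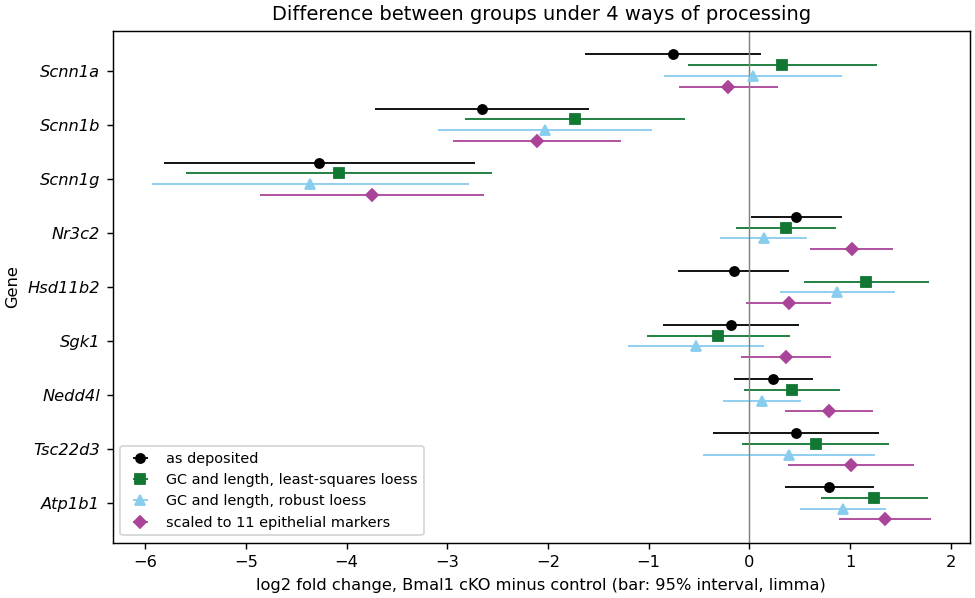
Log2 fold change (*Bmal1* cKO minus control) of each gene with its 95% interval from limma under 4 ways of processing, namely as deposited, corrected for GC content and length by 2 forms of loess, and scaled to 11 epithelial markers. *Scnn1b* and *Scnn1g* are below 0 and *Atp1b1* is above 0 in each, while *Scnn1a*, *Hsd11b2* and *Sgk1* change side.

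Other genes of sodium absorption and corticosteroid action were taken in 7 lists of 70 genes, of which 65 were listed and tested. Of these 26 fell (40.0%) and 17 rose (26.2%), beside 27.7% and 29.0% of all genes. With epithelial scaling 14 fell and 28 rose, where 15.1% of all genes fell and 42.6% rose. With the least-squares correction for GC content and length 13 fell and 21 rose, where 10.9% of all genes fell and 28.6% rose.

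Of 7 proteases and inhibitors that act on ENaC, 3 fell and 1 rose (median log2 fold change -0.07). *Furin*, the convertase that cuts the alpha and gamma subunits, had 1417 and 1686 normalized counts in control and 495 and 420 in *Bmal1* cKO and fell by 1.76 (limma adjusted p = 0.00063), but the least-squares correction left -0.36, which did not pass. *Tmprss2*, a membrane serine protease, rose by 0.72 (adjusted p = 0.0109). *Spint2*, an inhibitor of such proteases, was at -0.07 and did not pass.

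Of 9 other apical sodium transporters and scaffolds tested, 4 fell and 2 rose (median -0.47). *Slc9a3r2*, a scaffold of the sodium-hydrogen exchanger, had 161 and 74.5 normalized counts in control and 10.3 and 9.46 in *Bmal1* cKO. It fell by 3.35 (limma adjusted p = 0.00338), with only 10 and 7 reads in *Bmal1* cKO. *Slc6a14*, a sodium-coupled carrier of amino acids, had 3670 and 3188 in control and 19400 and 24107 in *Bmal1* cKO. It rose by 2.66 (adjusted p = 0.000533), and it rose under both corrections for GC content as well.

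Of 7 other sodium pump subunits and regulators tested, 3 fell and none rose (median -0.13). The 3 were *Fxyd1*, *Fxyd4* and *Fxyd5*, which encode small membrane proteins that tune the pump. *Fxyd5* had 395 and 260 normalized counts in control and 13.4 and 4.05 in *Bmal1* cKO (log2 fold change -5.24, limma adjusted p = 0.00136). In *Bmal1* cKO *Fxyd5* rests on 13 and 3 reads and *Fxyd1* had 0 reads in both libraries, close to the smallest level this depth can show. Of 6 potassium channels, which return the potassium that the pump brings in, 2 fell and 1 rose, all by small amounts. *Kcnq1* fell by 0.43 (adjusted p = 0.0256) but was at 0.62 and past the threshold after the least-squares correction. *Kcnk5* rose by 0.38 (adjusted p = 0.0494), a call lost with TMM scaling, and *Kcnk1*, the highest in counts, was at 0.31 and did not pass.

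Of 7 corticosteroid receptors, chaperones and local steroid enzymes tested, 2 fell and 4 rose (median 0.84). *Nr3c1*, the glucocorticoid receptor, had 996 and 930 normalized counts in control and 2560 and 2987 in *Bmal1* cKO and rose by 1.52 (limma adjusted p = 0.000559). *Hsd11b1*, which regenerates active glucocorticoid, had 137 and 84.7 in control and 4.11 and 8.11 in *Bmal1* cKO. It fell by 3.99 (limma adjusted p = 0.00231), with only 4 and 6 reads in *Bmal1* cKO. The chaperone *Hsp90ab1* was at 0.20 and did not pass.

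Of 17 kinases and ubiquitin enzymes that act on ENaC, 3 fell and 7 rose (median 0.21). *Pdpk1*, the kinase that activates SGK1, rose by 1.04 (limma adjusted p = 0.00104). *Wnk4*, a kinase that regulates sodium transporters, fell by 1.29 (adjusted p = 0.00281) but was at 0.17 after the least-squares correction. *Nedd4*, the relative of *Nedd4l*, rose by 0.78 (adjusted p = 0.00286) and was at 0.33 after it, neither of them past the threshold there.

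Of 12 glucocorticoid-inducible genes, 9 fell and 2 rose (median -1.56). *Fkbp5*, which feeds back on the glucocorticoid receptor, had 1768 and 1839 normalized counts in control and 710 and 723 in *Bmal1* cKO and fell by 1.33 (limma adjusted p = 0.000533). *Sult1d1*, a sulfotransferase, rose by 2.43 (adjusted p = 0.000656). *Tsc22d3* and *Sgk1*, which corticosteroids also induce, did not pass, as given above.

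**Figure D5:**
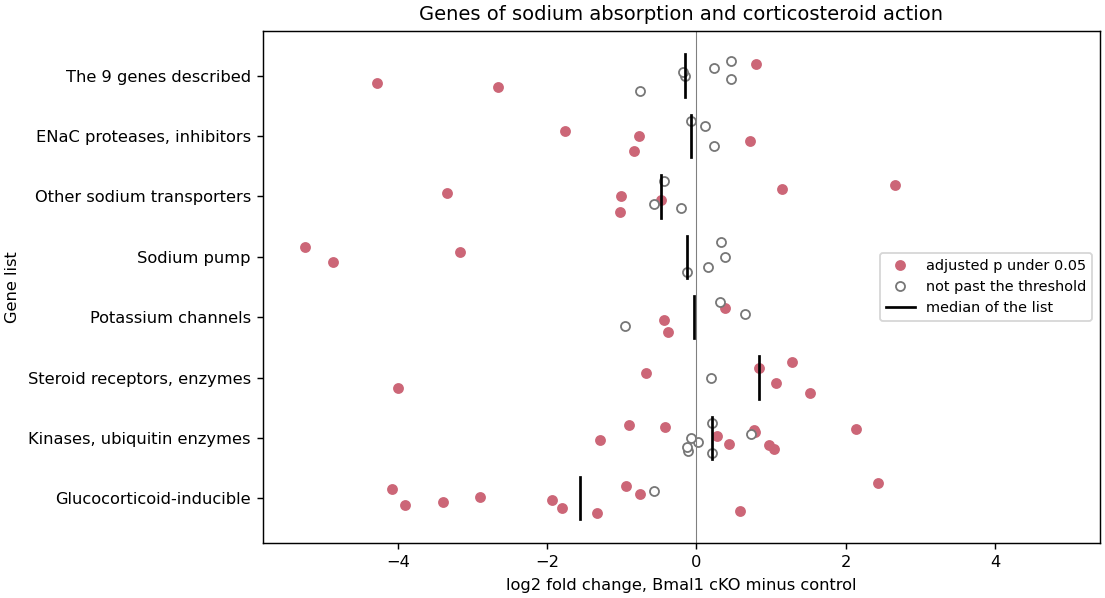
Log2 fold change (*Bmal1* cKO minus control) of the 9 genes and of the 65 tested genes of 7 related lists, 1 row per list, filled where the limma adjusted p is under 0.05 and with a bar at the median of the list. The glucocorticoid-inducible genes have the lowest median, -1.56, and the receptors and steroid enzymes the highest, 0.84.

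The position along the colon was checked with 5 distal genes, of which 1 fell and 1 rose. *Hoxd13* rose by 2.15 (344 and 160 normalized counts in control, 1462 and 746 in *Bmal1* cKO, limma adjusted p = 0.0116), and *Hoxa11* fell by 1.15 (65.9 and 50.8 against 26.7 and 24.3, adjusted p = 0.0406). The *Hoxa11* call was lost with epithelial scaling (-0.62), with the least-squares correction (-0.42) and without any 1 of the mice, and the *Hoxd13* call without control mouse 2 (1.60, limma adjusted p = 0.0716) and without *Bmal1* cKO mouse 1 (1.66, adjusted p = 0.0952). *Hoxb13*, the highest of them, had 1127 and 1379 normalized counts in control and 1107 and 962 in *Bmal1* cKO and did not pass (log2 fold change -0.27, limma adjusted p = 0.143). Of 8 surface colonocyte markers, the cells that carry ENaC, 1 fell and 2 rose. *Car4* fell by 1.97 (limma adjusted p = 0.00595), *Slc26a3* rose by 2.13 (adjusted p = 0.00486) and *Krt20* rose by 0.68 (adjusted p = 0.0198), while *Ceacam1*, the highest in counts, was at -0.26 and not past the threshold. The calls of *Car4*, *Slc26a3* and *Krt20* were lost without *Bmal1* cKO mouse 1, those of *Slc26a3* and *Krt20* also without *Bmal1* cKO mouse 2, and that of *Krt20* also without control mouse 1. Of 7 crypt base and dividing cell markers 1 fell and 3 rose. *Top2a* rose by 0.92 (limma adjusted p = 0.00189) but was at 0.01 after the robust correction, and *Mki67* at 0.01 and *Pcna* at 0.09 did not pass. Of the stem cell genes in this list *Lgr5* rose by 2.79 (adjusted p = 0.00814, limma), *Smoc2* rose by 1.97 (adjusted p = 0.00191) and *Ascl2* fell by 1.91 (adjusted p = 0.0331). *Ascl2* was at 0.05 after the least-squares correction and did not pass without control mouse 2 or either *Bmal1* cKO mouse, and the call of *Lgr5* was lost without either *Bmal1* cKO mouse. What part these had in the ENaC results was not tested.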

How the data were processed

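The authors aligned reads to GRCm38 with STAR and normalized gene counts with DESeq2. Counter, annotation and strand setting are not given in the sources used here, which also differ on the library kit. The deposited values per mouse are a signal, each being the reads on a gene over the size factor of its library. Not used were the authors' mean, log2 fold change, standard error, score (test statistic) and p-value columns. All deposited values were whole multiples (tolerance 0.05) of the value of 1 read, which gave the reads (10312791 to 14156639 per library). Intervals on reads cover counting error only.

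The test ran on log2(normalized count + 1), a scale that understates changes of low genes, over 13983 genes whose mean reached 10, with limma 3.58.1 (mean-variance trend, two-sided, Benjamini-Hochberg, threshold 0.05). The 9 genes and the lists were chosen with earlier results of these data known. From each pathway list the text names the called gene with the lowest adjusted p in each direction and the gene with the highest mean, and from each marker list the gene with the highest mean. A gene that this rule names is not reported here. *Nme7*, *Des*, *Fxyd1*, *Fxyd4*, *Hoxd13*, *Hoxa11*, *Car4*, *Slc26a3*, *Krt20*, *Mki67*, *Pcna*, *Lgr5*, *Smoc2* and *Ascl2* were named after their values were seen.

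Alternatives were pseudocounts of 0.5 and 5, no filter or a mean of at least 50, other scalings, no trend, edgeR 4.0.16 and DESeq2 1.42.0 on the recovered reads, a replicate block, fits without each mouse, and loess corrections (span 0.3) for GC content and length. The first loess form was least-squares. The robust form was added after the least-squares form was seen to move the median of all genes. The fits were also run on simulated data that held no shift in cell types, so that run does not bear on such a shift. Its outcome is not given here. Of 16015 listed genes 16003 matched the annotation.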

Additional observations from a re-analysis of the deposited data

How the results depend on the processing

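Over 19 alternatives *Scnn1g* lay between -5.08 and -3.47 on the log2 scale and passed the threshold in all 19. *Scnn1b* lay between -3.21 and -1.73 and passed in 18, missing it without *Bmal1* cKO mouse 1. *Atp1b1* lay between 0.57 and 1.34 and passed in 16. Leaving out each mouse, where the lone mouse of a group is assumed to vary like the others, gave -1.31 to -0.21 for *Scnn1a*, -3.21 to -2.10 for *Scnn1b*, -5.08 (without *Bmal1* cKO mouse 1) to -3.47 (without *Bmal1* cKO mouse 2) for *Scnn1g*, 0.08 to 0.40 for *Nedd4l*, 0.21 to 0.72 for *Nr3c2*, -0.44 to 0.12 for *Hsd11b2*, -0.52 to 0.15 for *Sgk1*, 0.59 to 1.003 for *Atp1b1* and -0.054 to 0.98 for *Tsc22d3*. It left 1 to 3 of the 9 genes lower and 0 to 2 higher, 2205 to 2852 of all genes lower and 2654 to 3154 higher, and 15 to 22 genes of the pathway lists lower.

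*Scnn1a* passed the threshold at -0.99 with library total scaling (adjusted p = 0.0498) and at -0.87 with DESeq2 (adjusted p = 0.0260), and turned to 0.33 with the least-squares loess and to 0.035 with the robust one. *Hsd11b2* turned to 1.16 and 0.88 under the same corrections. Epithelial scaling gave 0.39 for *Hsd11b2*, 0.37 for *Sgk1*, 1.02 for *Nr3c2*, 0.79 for *Nedd4l* and 1.01 for *Tsc22d3*, with 4 of the 9 genes higher, 2114 genes lower in all, and 14 pathway genes lower and 28 higher. The least-squares loess left 2 of the 9 genes higher, 1522 genes lower in all and 13 pathway genes lower. The robust loess left 2 of the 9 genes higher and gave 2346 genes lower and 2388 higher.

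Whether mice of the same number were paired is not given in the sources used here. The deviations of mouse 1 of the groups correlated at -0.09 across genes, a value that with 2 mice per group cannot decide this. With the replicate block *Scnn1a* stayed at -0.76 (adjusted p = 0.0417) and *Nr3c2* at 0.47 (adjusted p = 0.0371), both then past the threshold, with 2 of the 9 genes higher. The replicate block with the least-squares loess gave 0.33 for *Scnn1a*, 1.16 for *Hsd11b2* and 0.66 for *Tsc22d3*, with 3 of the 9 genes higher, 1614 genes lower in all and 13 pathway genes lower. The replicate block with the robust loess gave 0.035 and 0.88 for the first 2, with 2 higher, 1829 lower and 1959 higher in all, and 16 pathway genes lower. The causes of these shifts were not tested. With 2 mice per group no outlier test was possible, and depth limits *Scnn1g*, which had 18 and 4 reads in *Bmal1* cKO.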
